A study of Mus musculus with 2 samples.

Results

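Mitochondrial ribosomal proteins are encoded in the nucleus, made in the cytosol and imported into mitochondria, where they assemble with ribosomal RNA from mitochondrial DNA into a large and a small subunit. The finished ribosome translates the few messenger RNAs of the mitochondrial genome, which encode core subunits of the respiratory chain and of ATP synthase. Brown adipocytes are dense in mitochondria and burn fuel through that chain to make heat, so their thermogenic capacity depends on this ribosome. Part of its proteins descend from the bacterial ribosome and part are found in mitochondria only, and the proteins of both kinds coat a ribosomal RNA that is shorter than its bacterial counterpart.

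The members were all genes whose mouse symbol starts with Mrpl or Mrps followed by a digit. The rule found 78 of the 16174 genes listed in either library, 49 named for the large subunit (Mrpl) and 29 for the small subunit (Mrps), on 17 chromosomes. All 78 were listed in both libraries. All 78 also passed the filter on low values, at least 1 FPKM in either library, which 11746 genes passed. FPKM is the number of fragments scaled to transcript length and to the size of the library. Another 6 symbols that fit the rule are pseudogenes in the RefSeq gene table, and none of them was listed in the files. In known structures of the mammalian mitoribosome, Mrps18a and Mrps30 lie in the large subunit despite their names, and Mrps36 has no place in either subunit and has since been assigned to the 2-oxoglutarate dehydrogenase complex.

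RNA was sequenced from brown adipose tissue of C57BL/6 mice aged 45 weeks that were fed chow for 45 weeks. The control library came from D3Bfl/fl mice, with D3B alleles flanked by loxP sites, and the knockout library from D3Bfl/fl-UCP1-Cre+/- mice, in which the promoter of Ucp1 drives Cre in brown adipocytes while other cells of the tissue keep the gene. The floxed allele was thus shared by both libraries, and the control label names no Cre. There was 1 library per genotype, the labels do not give the number of mice behind each, and the run names place the control library on lane 2 and the knockout library on lane 1, so lane, Cre and loss of D3B cannot be told apart. The series title gives the mice as female, and D3B is read as Dnmt3b, a DNA methyltransferase.

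The libraries held 9666528 expected counts (control) and 10068359 (knockout). Dnmt3b was at 0.39 FPKM in control and 0.18 FPKM in knockout tissue on 15 and 7 counts, a ratio of 0.46 with an interval of 0.16 to 1.203, so its loss was not detectable at this depth. With no replicates there is no test of the genotypes. Ratios below are of knockout to control FPKM, followed in parentheses by an exact conditional 95% interval of the counts, which covers counting error only and compares these libraries. Medians and folds over genes use log2((FPKM + 1) knockout / (FPKM + 1) control), called the log2 ratio, which understates the difference of low genes. In bulk tissue, fewer cells of a type and less RNA per cell cannot be told apart. The brown adipocyte markers were present, with Ucp1 at 4987 and 4271 FPKM, and the median over the 16 markers of that list was -0.31. Of these 14 were below 0 (87.5%, against 53.8% of all tested genes). Higher in the knockout library were Elovl3, at 23.2 and 38.25 FPKM with a ratio of 1.65 (1.46 to 1.87), and Ppara, with a ratio of 1.15. All 16 were listed in both libraries, and their summed level was 18989 FPKM in control and 14844 FPKM in knockout tissue. The 7 endothelial markers had a median of -0.54 (summed 163.7 and 123.1 FPKM), the 8 fibroblast markers 0.41 (260.3 and 357.7 FPKM), the 7 tested of 10 immune markers 0.67 (233.6 and 376.7 FPKM) and the 7 listed of 10 white adipocyte markers 1.04 (336.4 and 718.9 FPKM). The 8 general adipocyte markers had a median of -0.05 (25925 and 24218 FPKM) and the 6 tested of 8 red blood cell markers -0.04 (7585 and 7434 FPKM), and with equal FPKM totals these medians were 0.04 and 0.05. Skeletal muscle markers were near 0, with 11 of 12 listed and summed levels of 4.07 and 4.04 FPKM, but the 1 that passed the filter, Acta1, was at 1.38 and 2.71 FPKM, a ratio of 1.96. Among muscle markers Actn3 was at 0 in the control and Myh1, Myh4 and Tnnt3 were at 0 in the knockout library, and among immune markers the T cell gene Cd3e was at 0 in the knockout library. The part of these cell type differences in the results below was not tested.

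The promoters of the members were compared because the genes are spread over the genome and yet code for one particle. Nuclear respiratory factor 1 (NRF1), the ETS family member GABP and YY1 are known regulators of nuclear genes for mitochondrial proteins. A RefSeq table of the build GRCm38.p6 held a promoter, 250 bases before to 50 after the start, for 69 of the 78 members. The letters searched on either strand were CCGGAAG for ETS factors, AAGATGGC for YY1, and for the NRF1 core GCGC and TGCGC with 1 base of any kind between them. The ETS letters were in 26 of the 69 promoters (37.7%), against 9.93% of the 27025 genes in the table and 20.8% of the 9340 tested genes in it. The YY1 letters were in 12 (17.4%, against 3.19% and 5.37%) and the NRF1 core in 13 (18.8%, against 5.19% and 11.9%). At least 1 of these was in 43 member promoters (62.3%, against 16.4% and 33.4%), 28 of the large and 15 of the small subunit. The median log2 ratio was -0.21 over these 43 members and -0.10 over the 26 without any. Taken singly, the letters gave smaller gaps between members with and without them. The medians were -0.20 and -0.18 for ETS, -0.20 and -0.18 for YY1, and -0.23 and -0.16 for the NRF1 core. With an adenine as the free base of that core, found in 3 members, the order was reversed, at -0.15 and -0.19. Whether these letters bear on the ratios was not tested. The promoters of 4 members are shown as 120 bases that end just before the start. They were chosen because the same letters stood in members with different ratios. The ETS letters were in a low member and in Mrps22, whose ratio was above 1 with an interval (0.969 to 1.28) that included 1. The NRF1 core was in a low member and in another at the control level. Capitals mark the match, which is a match of letters and not a measured binding site.
Mrps18a, chr17:46110884-46111003, plus strand, ETS, ratio 0.763: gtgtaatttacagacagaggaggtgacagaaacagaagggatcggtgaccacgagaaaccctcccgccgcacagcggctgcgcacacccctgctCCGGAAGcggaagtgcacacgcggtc
Mrps22, chr9:98601680-98601799, minus strand, ETS, ratio 1.11: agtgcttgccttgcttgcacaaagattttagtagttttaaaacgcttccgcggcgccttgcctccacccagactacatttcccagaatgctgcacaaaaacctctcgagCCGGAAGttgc
Mrpl12, chr11:120484517-120484636, plus strand, NRF1 core, ratio 0.797: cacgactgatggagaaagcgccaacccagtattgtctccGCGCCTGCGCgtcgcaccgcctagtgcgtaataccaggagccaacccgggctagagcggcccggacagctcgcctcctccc
Mrpl44, chr1:79775898-79776017, plus strand, NRF1 core, ratio 1.001: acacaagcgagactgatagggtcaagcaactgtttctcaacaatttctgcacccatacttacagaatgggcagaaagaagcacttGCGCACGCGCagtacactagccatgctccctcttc

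Most members were slightly lower in the knockout library, and none was far from the control level. The log2 ratio was below 0 in 63 of 78 members (80.8%), against 53.8% of all tested genes. Their median was -0.19, against -0.03 over all tested genes, and the middle 50% of members ran from -0.25 to -0.05. At least 1.2-fold lower were 18 members (23.1%), close to the 18.7% of all tested genes. At least 1.2-fold higher was 1 member, Mrps6, against 15.8% of tested genes. No member was past 1.5-fold, against 3.69% of tested genes lower and 4.63% higher. The counting interval lay below 1 for 46 members, above 1 for 1 and included 1 for 31, where 22.3% of tested genes lay below and 18.1% above, but members rest on more reads than most genes. Together the members took 0.675% of control counts (Wilson 95% interval 0.670% to 0.680%) and 0.604% of knockout counts (0.599% to 0.608%), a ratio of 0.894 (0.884 to 0.904). With equal FPKM totals in both libraries, the median was -0.10, with 54 of 78 below 0 (69.2%, against 41.9% of tested genes). At least 1.2-fold lower were then 8 (10.3%, against 12.4%), 3 of the large and 5 of the small subunit. Under that scaling the tested genes at least 1.2-fold apart went from 2191 lower and 1852 higher to 1461 lower and 2558 higher, and their median to 0.05.

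**Figure D1:**
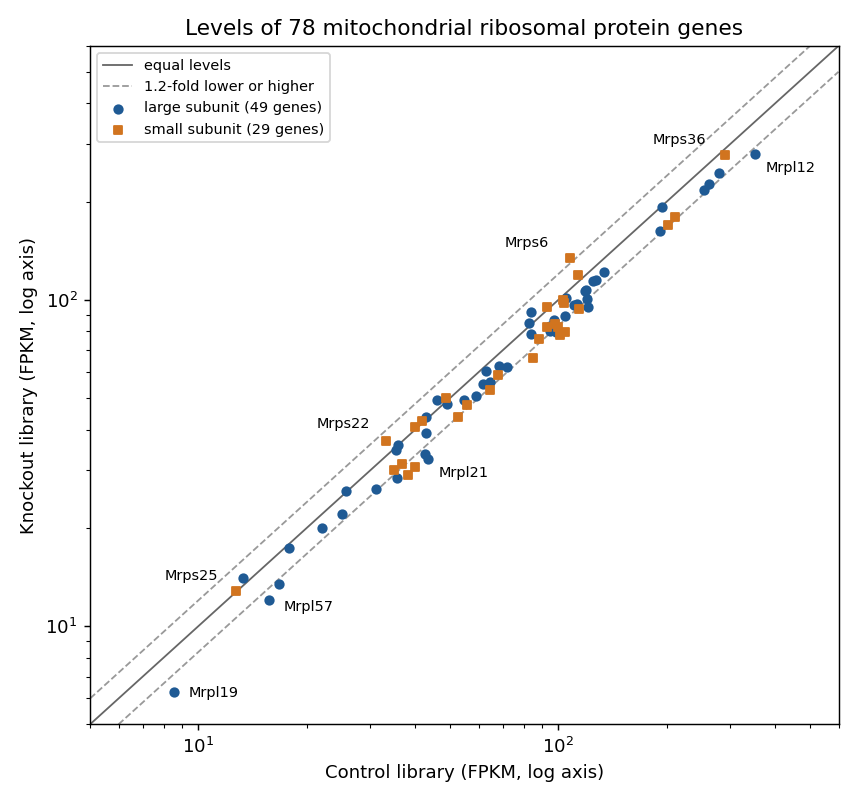
FPKM of each of the 78 members in the control (horizontal) and knockout library (vertical), both on log axes, 1 point per gene, with lines for equal levels and for 1.2-fold. Points lie mostly between the equal line and 1.2-fold lower, from Mrpl19 at 8.55 and 6.29 FPKM to Mrpl12 at 350.6 and 279.6 FPKM, and Mrps6 stands above the upper line.

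Transcript levels of the members were far from equal although the ribosome holds its proteins in fixed proportion. The highest member stood 41.0 times above the lowest in the control and 44.4 times in the knockout library. The control range was 8.55 to 350.6 FPKM with a median of 83.3, and the knockout range 6.29 to 279.6 FPKM with a median of 71.1. The order of the levels was nearly the same in both libraries, with a Spearman rho of 0.979 across the 78 genes, which share library and depth. Long transcripts had low FPKM, with a rho of -0.70 between length and mean FPKM. The 4 most abundant members were Mrpl12, Mrps36, Mrpl42 and Mrpl34. Mrpl12 forms the flexible stalk that recruits translation factors and is reported to bind the mitochondrial RNA polymerase. It was at 350.6 FPKM in control and 279.6 FPKM in knockout tissue, a ratio of 0.797 (0.756 to 0.841), the narrowest interval among members at least 1.2-fold lower. Mrps36 stood at 290.4 FPKM in control and 278.6 FPKM in knockout tissue, and its ratio of 0.960 (0.899 to 1.02) had an interval that included 1. Mrpl42, found in mitochondria only, was at 278.5 and 244.3 FPKM with a ratio of 0.877 (0.817 to 0.941). Mrpl34, a small protein with a bacterial counterpart, was at 261.4 and 226.5 FPKM with a ratio of 0.867 (0.805 to 0.933). The most abundant transcripts were thus lower or level, and none was higher.

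In the large subunit 42 of 49 genes were below 0 on the log2 scale (85.7%, against 53.8% of all tested genes). The median of the 49 was -0.16. At least 1.2-fold lower were 9 (18.4%, against 18.7% of all tested genes), and none was at least 1.2-fold higher. With equal FPKM totals 3 (6.12%) were at least 1.2-fold lower, against 12.4% of tested genes. Its lowest values belonged to Mrpl19, Mrpl21 and Mrpl57. Mrpl19, a protein with a bacterial counterpart, was at 8.55 FPKM in control and 6.29 FPKM in knockout tissue, a ratio of 0.736 (0.633 to 0.854). Its counts were not whole, so reads shared with another gene enter this value. Mrpl21, likewise of the bacterial type, was at 43.3 and 32.6 FPKM with a ratio of 0.753 (0.647 to 0.877). Mrpl57, a small protein found in mitochondria only, was at 15.7 and 11.98 FPKM with a ratio of 0.761 (0.647 to 0.894). These intervals overlap widely, so the order among the lowest members is not resolved at this depth.

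By place in the large subunit, in groups written after the values were seen, the stalk proteins had ratios of 0.797 for Mrpl12, 0.894 (0.832 to 0.962) for Mrpl10, which anchors Mrpl12, and 0.906 (0.807 to 1.02) for Mrpl11 at its base. Around the peptidyl transferase centre, where peptide bonds form, Mrpl2 was at 120.5 FPKM in control and 94.9 FPKM in knockout tissue, a ratio of 0.787 (0.721 to 0.860). There Mrpl27 had a ratio of 0.857 (0.772 to 0.95) and Mrpl3 0.866 (0.788 to 0.952), while Mrpl16 stood at 83.0 and 84.9 FPKM with 1.02 (0.931 to 1.12). At the exit of the peptide tunnel, Mrpl45 tethers the ribosome to the inner membrane, and it was at 31.1 and 26.3 FPKM with a ratio of 0.847 (0.760 to 0.944). Its neighbours at the exit ran from Mrpl23 with 0.877 (0.769 to 0.999) and Mrpl24 with 0.878 (0.7997 to 0.963) to Mrpl47 at 35.4 and 34.6 FPKM with 0.978 (0.829 to 1.15). The 6 proteins of the central protuberance, the knob that faces the small subunit, were spread widest, from Mrpl46 with 0.794 (0.691 to 0.911) to Mrpl48 with 1.10 (0.994 to 1.21). Mrpl58 of this group, a peptidyl-tRNA hydrolase that frees stalled chains, was at 59.2 and 50.8 FPKM with a ratio of 0.858 (0.740 to 0.994).

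All 7 large subunit genes with ratios above 1 had intervals that included 1. Mrpl48 was at 83.7 FPKM in control and 91.9 FPKM in knockout tissue. Mrpl43, found in mitochondria only, was at 46.0 and 49.4 FPKM with a ratio of 1.07 (0.953 to 1.21), and Mrpl44, which is related to RNase III enzymes, at 35.8 and 35.9 FPKM with 1.001 (0.881 to 1.14). Mrpl1 was at 13.3 and 14.0 FPKM with a ratio of 1.05 (0.903 to 1.22). For Mrpl1 and Mrpl15 the deposited transcript length differed between the libraries, 2679 against 2560 bases and 3830 against 3667 bases, which raises FPKM where the length is smaller. In counts scaled to library size alone, which use no length, Mrpl1 had a ratio of 1.003, and Mrpl15 0.968 in place of its FPKM ratio of 1.01, on the other side of 1.

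In the small subunit 21 of 29 genes were below 0 (72.4%, against 53.8% of all tested genes). The median of the 29 was -0.21. At least 1.2-fold lower were 9 (31.0%, against 18.7% of all tested genes), and 1 was at least 1.2-fold higher (3.45%, against 15.8%). With equal FPKM totals 5 (17.2%) were at least 1.2-fold lower, against 12.4% of tested genes. The ratios ranged from 0.763 to 1.25. Intervals lay below 1 for 18 genes (62.1%, against 22.3% of all tested genes), included 1 for 10 and lay above 1 for 1. Mrps17, an RNA-binding protein of the body, was at 38.2 FPKM in control and 29.1 FPKM in knockout tissue, a ratio of 0.763 (0.659 to 0.883). Mrps12, which lines the decoding site, was at 85.2 and 66.2 FPKM with a ratio of 0.777 (0.681 to 0.885). All 4 body proteins compared had intervals below 1, the others being Mrps16 with 0.838 (0.764 to 0.918) and Mrps5 with 0.864 (0.785 to 0.9499). Mrps2 was at 39.9 and 30.8 FPKM with a ratio of 0.771 (0.693 to 0.857), and Mrps28 at 100.7 and 78.2 FPKM with 0.777 (0.692 to 0.872). In the head, Mrps24 and Mrps9 had ratios of 0.822 (0.751 to 0.8997) and 0.823 (0.745 to 0.908), and Mrps14 0.859 (0.786 to 0.9402), whereas Mrps7 had 0.943 (0.873 to 1.02) and Mrps10 1.02 (0.8996 to 1.16). Mrps34, which the small subunit needs to be stable, was at 88.5 and 76.1 FPKM with a ratio of 0.860 (0.772 to 0.958).

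The 4 platform proteins lay on both sides of the control level, with 2 below 0 and a median log2 ratio of -0.07. Mrps6, of the bacterial type, was at 107.7 FPKM in control and 134.3 FPKM in knockout tissue, a ratio of 1.25 (1.13 to 1.37), the 1 member with an interval above 1. Its counts, 771.5 and 1000.4, were not whole, and in the GENCODE M21 annotation its exons overlap on the same strand with those of Slc5a3, a myo-inositol transporter. Slc5a3 was at 4.82 and 6.86 FPKM with a ratio of 1.42 (1.27 to 1.60), on counts that were not whole either, so reads of these genes were divided between them and the Mrps6 value is uncertain. Mrps15 was at 113.2 and 119.3 FPKM with a ratio of 1.05 (0.967 to 1.15), while Mrps11 and Mrps18c of the same region had 0.852 (0.729 to 0.995) and 0.827 (0.720 to 0.949). Outside the platform, Mrps22, a mitochondria-only protein mutated in human respiratory chain disease, was at 33.1 and 36.9 FPKM with a ratio of 1.11 (0.969 to 1.28).

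The 3 Mrps18 genes descend from 1 bacterial protein, and the ribosome holds all of their products in different places. Mrps18a, in the large subunit, was at 104.5 FPKM in control and 79.8 FPKM in knockout tissue, a ratio of 0.763 (0.687 to 0.847). Mrps18c, the form in the bacterial position, was at 99.9 and 82.6 FPKM with a ratio of 0.827 (0.720 to 0.949). Mrps18b was at 92.9 and 82.7 FPKM with a ratio of 0.891 (0.811 to 0.979). All were lower in the knockout library, and the intervals of neighbouring values overlap. Mrps30, the other Mrps protein of the large subunit, was at 41.7 and 42.6 FPKM with 1.02 (0.914 to 1.14).

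**Figure D2:**
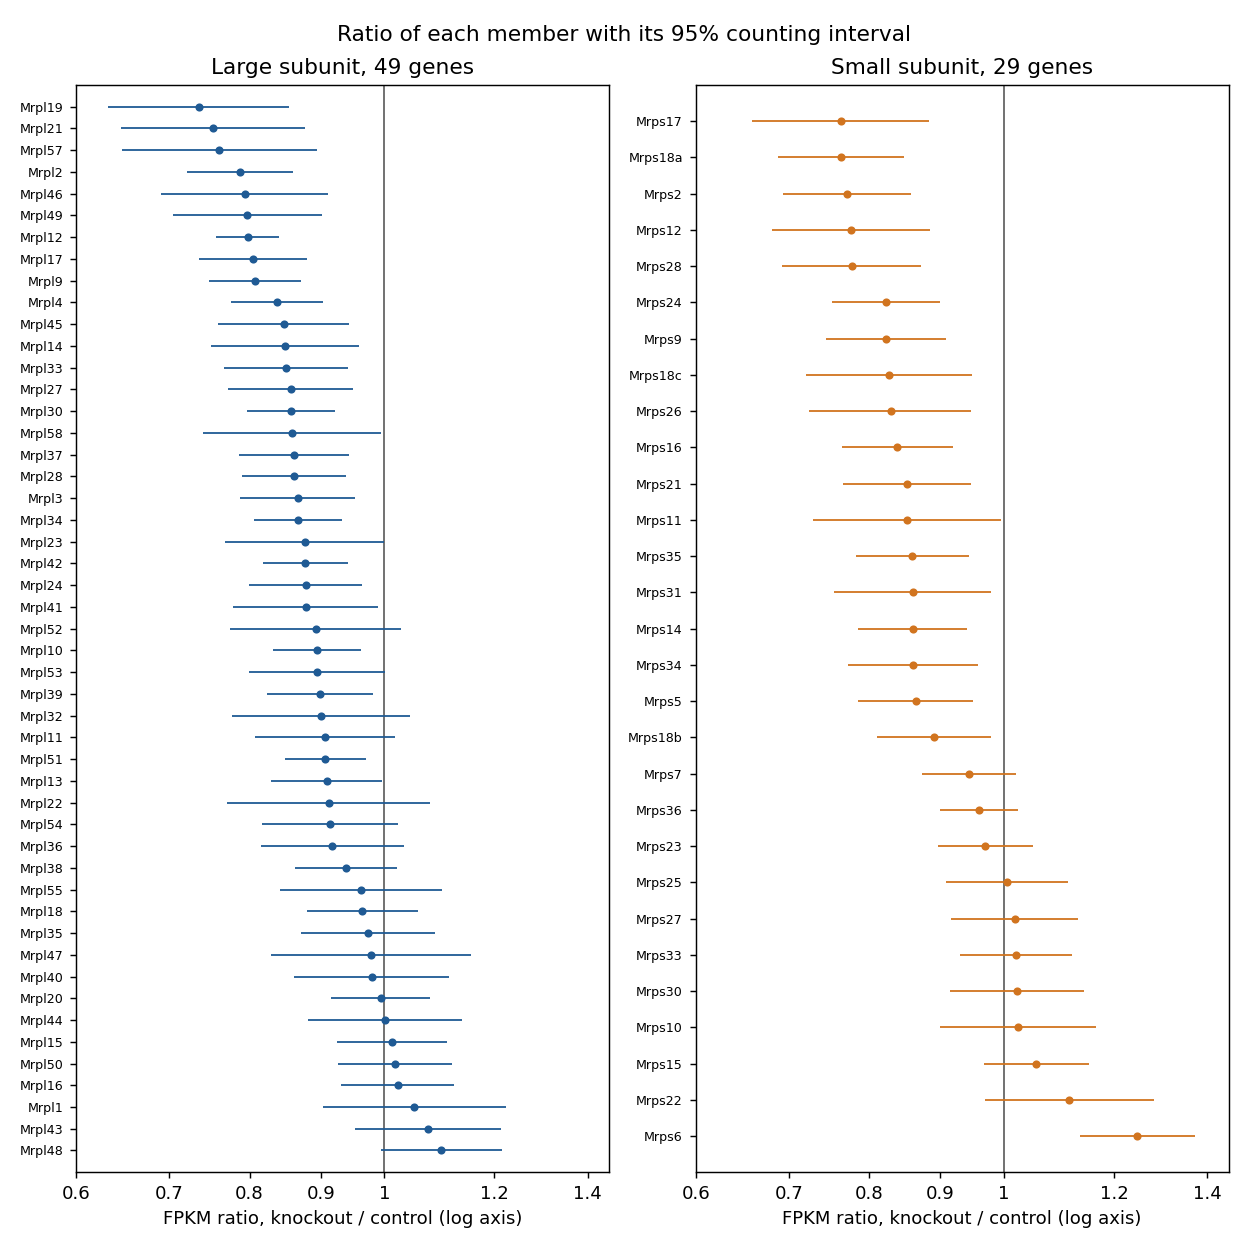
Ratio of knockout to control FPKM (horizontal, log axis) for each large subunit (left) and small subunit gene (right), sorted within each panel, with bars for the 95% counting interval and a line at 1. In the large panel 28 intervals lie below 1 and none above, and in the small panel 18 lie below and Mrps6 lies above.

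The subunits were not clearly apart. The large minus small difference of the median log2 ratio was 0.05, with the small subunit lower, and it was 0.05 again when Mrps18a and Mrps30 were counted with the large subunit and Mrps36 was left out. The means differed by -0.01, with the large subunit lower. Summed counts also put the large subunit lower, with a ratio of 0.886 (0.873 to 0.898) against 0.909 (0.892 to 0.926) for the small one. Without Mrps36 and Mrps6 the small subunit sum had a ratio of 0.892 (0.875 to 0.910), and without Mrpl12 the large subunit sum had 0.893 (0.880 to 0.905). The summed FPKM of the large subunit was 1.73 times that of the small one in the control and 1.70 times in the knockout library. Which subunit was lower thus depended on the summary, and with 1 library per genotype the difference has no test.

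A split by origin used a list of proteins with a bacterial counterpart drawn from known structures. It separated the genes named for the small subunit more than the subunits were separated from each other. Subunits here follow the gene names, so the 18 small subunit genes with a bacterial counterpart include Mrps18a. Likewise the 11 found in mitochondria only include Mrps30 and Mrps36. Mitoribosomal proteins under other symbols, among them Dap3 of the small subunit, are not in the split. The 5 of these that were tested had a median log2 ratio of -0.23, so the contrast describes only genes that fit the symbol rule. The 18 had a median log2 ratio of -0.24. Below 0 were 15 (83.3%), 8 were at least 1.2-fold lower (44.4%) and 14 had intervals below 1 (77.8%). The 11 had a median of -0.04. Of these 6 were below 0 (54.5%), 1 was at least 1.2-fold lower (9.09%) and 4 had intervals below 1 (36.4%). The shares of all tested genes were 53.8%, 18.7% and 22.3%. With equal FPKM totals the medians of the 18 and the 11 were -0.16 and 0.04, so the second changed sign while their order stayed. At least 1.2-fold lower were then 5 of the 18 (27.8%) and 0 of the 11, against 12.4% of all tested genes. The 1 mitochondria-only gene at least 1.2-fold lower as deposited was Mrps26, with a ratio of 0.829 (0.724 to 0.947). It was at 52.7 FPKM in control and 43.7 FPKM in knockout tissue. Near the control level were Mrps23 with 0.970 (0.896 to 1.05), Mrps25 with 1.005 (0.908 to 1.11), Mrps27 with 1.02 (0.916 to 1.13) and Mrps33 with 1.02 (0.930 to 1.12). In the large subunit the medians were -0.19 for 30 genes with a bacterial counterpart and -0.16 for 19 without. The members of each group share libraries and are not replicates, so this contrast is a description.

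**Figure D3:**
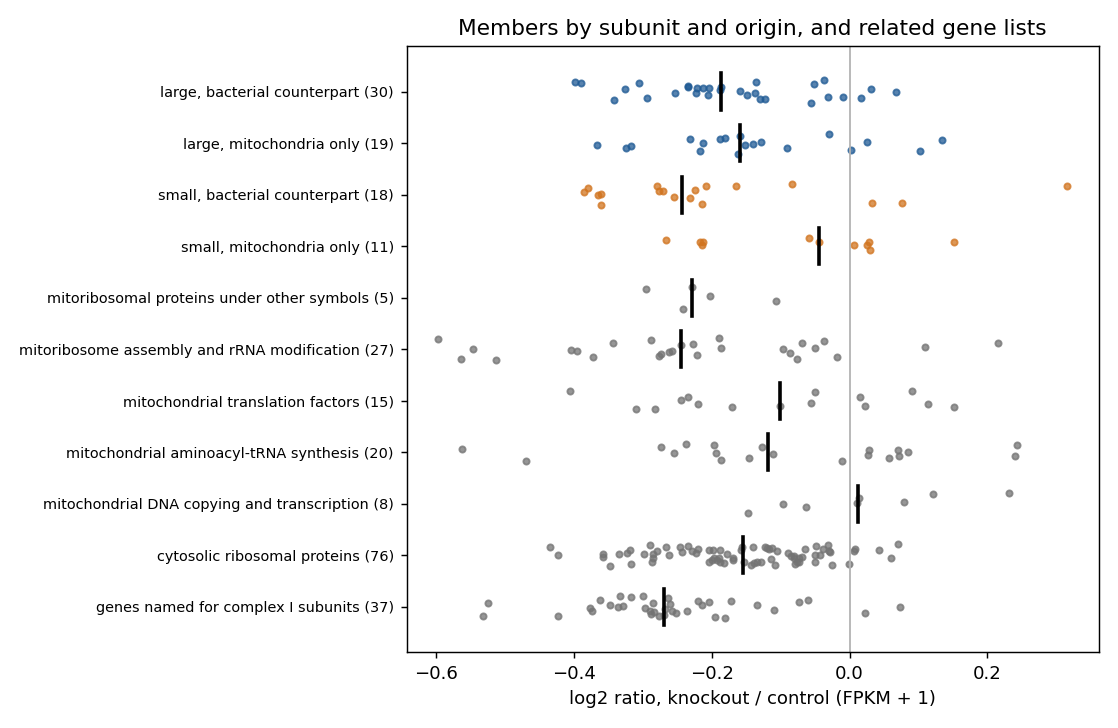
The log2 ratio (horizontal) of each gene, 1 point per gene with random vertical spread, for members split by subunit and origin (blue large, orange small) and for related lists (grey), with a black bar at each median and the number of genes in parentheses. Subunits follow the gene names. The small subunit genes found in mitochondria only centre at -0.04, those with a bacterial counterpart at -0.24, and assembly genes at -0.24.

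Set beside genes of like length, the members stood less far from the rest. Their transcripts were short, with a median of 1052 bases where that of all tested genes was 2682, and short genes were in general lower in the knockout library. In 20 bins of equal size by length, the median log2 ratio of all tested genes went from -0.18 in the shortest bin (109 to 785 bases) to 0.06 in the longest (7175 to 21718 bases). The shortest bin held 20 members with a median of -0.20, and the next (786 to 1060 bases), where all genes had -0.14, held 20 members with -0.16. Minus the median of its own bin, the typical member stood at -0.05. Below their bin were 50 of 78 members, against 5866 of all 11746 tested genes. The 12 members of 2000 bases or more, in bins where all genes had medians from -0.03 to 0.04, had a median of -0.16, among them Mrpl17 at 16.8 FPKM in control and 13.5 FPKM in knockout tissue with a ratio of 0.805 (0.736 to 0.880). Within the members the log2 ratio had little relation to length, with a Spearman rho of 0.08 across 78 genes, -0.01 in the large and 0.25 in the small subunit, against 0.16 across all tested genes.

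Length did not separate the subunits, whose median lengths were 1055 and 1049 bases. Minus their bins the large subunit had a median of -0.04 and the small one -0.07, and the small subunit genes with and without a bacterial counterpart had -0.11 and 0.03. Among the 2892 genes shorter than 2000 bases with a mean of at least 5 FPKM, a limit chosen after seeing the data, 66.7% had a log2 ratio below 0, against 55 of 66 members (83.3%). At least 1.2-fold lower were 25.5% of these genes and 14 of 66 members (21.2%), and at least 1.2-fold higher 9.79% and 1 member. The counting interval lay below 1 for 36.1% of these genes and for 40 of the 66 members (60.6%). A larger share of the short members than of these genes was thus below 0, but a slightly smaller share was past 1.2-fold.

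**Figure D4:**
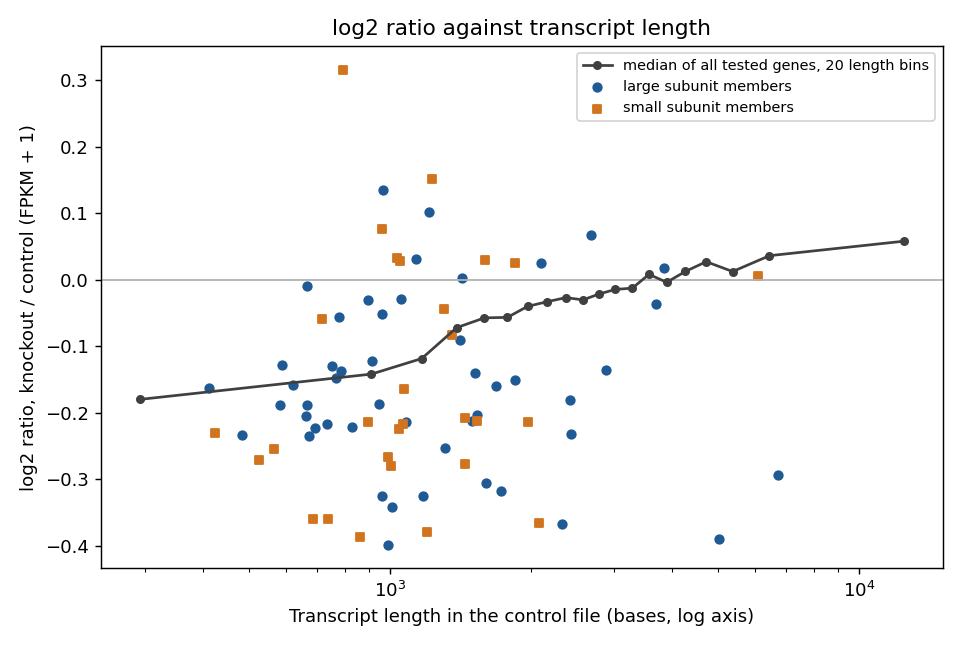
The log2 ratio of each member (vertical) against the transcript length in the control file (horizontal, bases, log axis), with a black line for the median of all tested genes in 20 length bins, placed at the geometric mean of each bin's limits. The line climbs from -0.18 to 0.06, and members of both subunits scatter around and below it, with Mrps6 at 0.32 the highest point.

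Mitoribosomal proteins under other symbols went the same way as the members. All 5 tested, Aurkaip1, Gadd45gip1, Dap3, Chchd1 and Ptcd3, had intervals below 1, against 22.3% of all tested genes. Aurkaip1 was at 113.7 FPKM in control and 92.5 FPKM in knockout tissue, a ratio of 0.813 (0.749 to 0.883). Dap3, a GTP-binding protein of the small subunit head, was at 26.7 and 22.7 FPKM with a ratio of 0.848 (0.780 to 0.922). Gadd45gip1, of the large subunit, had 0.843 (0.763 to 0.930), Chchd1 0.868 (0.778 to 0.968) and Ptcd3, a protein with RNA-binding repeats, 0.927 (0.860 to 0.999).

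Genes that assemble the ribosome had a lower median than the ribosomal proteins. This list held 27 genes for mitoribosome assembly and for modification of its RNA. A negative log2 ratio was found for 25 of them (92.6%, against 53.8% of all tested genes). Downward 11 passed 1.2-fold (40.7%, against 18.7%), and none passed it upward, against 15.8%. Their median was -0.24, and -0.19 minus the length bins, against -0.05 for the members. Mettl17, an assembly factor of the small subunit, was at 11.8 FPKM in control and 7.46 FPKM in knockout tissue, a ratio of 0.632 (0.497 to 0.801), past 1.5-fold on the log2 scale. The list held 6 methyltransferases that modify the ribosomal RNA, named after their values were seen. Of these 4 had intervals below 1, against 22.3% of all tested genes. Mrm2 was at 15.2 and 9.93 FPKM with a ratio of 0.655 (0.524 to 0.817) and Tfb1m at 11.2 and 7.37 FPKM with 0.656 (0.502 to 0.856), while Mrm1 had 0.672 (0.551 to 0.819) and Mrm3 0.749 (0.630 to 0.891). The intervals of Nsun4 with 0.936 (0.804 to 1.09) and of Mettl15, at 2.98 and 3.62 FPKM with 1.21 (0.835 to 1.78), included 1.

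Other lists of the translation machinery had medians nearer to 0 than the members. Minus the 20 length bins this no longer held for translation factors and tRNA charging. With a smooth trend of length, GC content and expression removed, the medians were -0.12 for translation factors and -0.04 for tRNA charging. The members then had -0.11, so the place of tRNA charging depended on the correction. Of 15 translation factors and related genes 10 were below 0 (66.7%, against 53.8% of all tested genes). At least 1.2-fold lower were 3 (20%, close to the 18.7% of all tested genes). Their list had a median of -0.10, and of -0.080 minus the length bins, where the members had -0.049. Oxa1l, the insertase that takes the new chain from the ribosome into the inner membrane, was at 55.1 FPKM in control and 41.3 FPKM in knockout tissue, a ratio of 0.750 (0.691 to 0.815). Slirp, an RNA stability factor, was at 134.3 and 110.3 FPKM with 0.821 (0.718 to 0.938), but its partner Lrpprc had 1.07 (1.004 to 1.13). Mtfmt, which makes the formylated initiator tRNA, was at 6.98 and 5.44 FPKM with 0.779 (0.5996 to 1.01), on counts that were not whole. The elongation factors, named after their values were seen, were Tufm with 0.965 (0.922 to 1.01), Gfm1 with 1.01 (0.952 to 1.07) and Tsfm with 0.847 (0.760 to 0.944). The 20 genes that charge mitochondrial tRNAs had a median of -0.12, and of -0.062 minus the length bins. Of these 12 were below 0 (60%) and 3 at least 1.2-fold lower (15%), against 53.8% and 18.7% of all tested genes. Intervals of 8 of the 20 lay below 1, of 2 above, and of 10 included 1, where 22.3% of all tested genes lay below and 18.1% above. Among the lower ones Sars2 had a ratio of 0.813 (0.663 to 0.995) and Qrsl1 0.826 (0.689 to 0.990). The 8 genes that copy and transcribe mitochondrial DNA had a median of 0.01 with 3 below 0, and their extremes were Twnk, the helicase, with 1.19 (1.03 to 1.38), Tefm with 1.09 (0.898 to 1.33) and the polymerase Polrmt with 0.897 (0.796 to 1.01).

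The cytosolic ribosomal proteins and the genes named for subunits of complex I, both encoded by short and abundant transcripts, stood on either side of the members. The 76 cytosolic ribosomal proteins had a median log2 ratio of -0.15, and of -0.01 minus the length bins. Below 0 were 71 (93.4%, against 53.8% of all tested genes), and at least 1.2-fold lower were 16 (21.1%, against 18.7%). The largest differences were Rpl36 with a ratio of 0.739 (0.697 to 0.784), Rplp2 with 0.745 (0.715 to 0.777) on counts that were not whole and Rps14 with 0.780 (0.745 to 0.817). Complex I is the respiratory complex with the most subunits made by the mitoribosome. The 37 genes with symbols of its subunits include Ndufa4, since assigned to complex IV, and Ndufa4l2, which is no complex I subunit. Of the 37 genes 35 were below 0 (94.6%) and 21 at least 1.2-fold lower (56.8%), against 53.8% and 18.7% of all tested genes. Their median was -0.27. Minus the length bins it was -0.10, with 34 of 37 below their bin, against 50 of 78 members. Its largest differences were Ndufs6 with a ratio of 0.691 (0.656 to 0.728), Ndufs7 with 0.695 (0.667 to 0.724) and Ndufa13 with 0.745 (0.712 to 0.779). With equal FPKM totals 4 cytosolic ribosomal proteins (5.26%), 6 genes named for complex I (16.2%) and 8 assembly genes (29.6%) were at least 1.2-fold lower. The share of all tested genes was then 12.4%. The medians of the 3 lists were -0.07, -0.18 and -0.16, against 0.05 for all tested genes. These differences between lists have no test.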

How the data were processed

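The members and gene lists were chosen with earlier results of these data known. Poly(A) RNA was sequenced without mention of strand, per the labels' protocols. RSEM and the build mm9 are named in the submitters' processing notes, while an aligner is not given in the sources read. The authors deposited for each gene an expected count, in which reads matching several genes are divided among them, and an FPKM value with 2 decimals, per the file headers. In highly expressed genes the deposited FPKM corresponds to a length about 51 bases (control) and 52 bases (knockout) below the listed one. Genes not listed were set to 0. Symbols came from RefSeq GRCm38.p6 by Entrez identifier (16134 of 16174 matched). As that build is not mm9, coordinates are printed only for RefSeq promoters. A count within 0.05 of a whole number was called whole, and 5 members had counts that were not.

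Python 3.11.15, pandas 2.3.3 and SciPy 1.17.1 were used, and the intervals were tested on simulated data. A count of 0 allows up to 3 counts. Intervals treat reads as independent molecules, although the libraries were amplified by PCR and no molecular identifiers are mentioned. GC content, from GENCODE M21, covered 98.7% of the tested genes and all members. Named members were the 8 lowest and 6 highest by log2 ratio (mean FPKM 5 or more), the 4 most abundant, and 14 chosen for their place or known role. Of other lists, up to 3 genes with the largest difference were named. A gene that this rule names is not reported here. Further members named by role, and the further genes named in the lists, were chosen after their values were seen. Alternatives were pseudocounts of 0.1 and 5, no filter, a mean of at least 5 FPKM, counts scaled to library size without length, 2 rescalings, members with whole counts, other member sets, the mean, and further corrections for length, expression and GC content.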

Additional observations from a re-analysis of the deposited data

How the results depend on the processing

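With 1 library per genotype the spread between mice is unknown, no library could be left out in turn, and depth limits single members, 31 of which had an interval that included 1. No paired analysis was possible because each group has 1 library and no result comes from a test. Of 70 recomputed values of the 6 summary results, 60 stayed within the counting error of the main value or, for counts, within 1.5 times, and none changed sign. The median log2 ratio of the members, -0.19 as reported, was -0.16 with the median of all tested genes set to 0, -0.10 with FPKM totals made equal and -0.16 as a mean. The members at least 1.2-fold lower were 18 as reported and 8 with equal FPKM totals. The members at least 1.2-fold higher were 1 as reported and 0 among members with whole counts, since Mrps6 has shared reads. The distance to genes of like length, -0.05 as reported, was -0.087 with a pseudocount of 5, -0.087 with no filter on low values, -0.066 with 10 length bins, -0.11 with a smooth trend of length and expression removed and -0.11 when GC content was added, a correction that was chosen after the data had been seen. The large minus small difference stayed between 0.03 and 0.07 in its alternatives on medians. As a difference of means, which is not among the 70 values, it was -0.01 and so had the other sign. Of 216 values of the 27 named members, 8 moved by more than their counting error and none with an interval off 1 changed sign. The cause of these shifts was not tested.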

Other observations

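In the GENCODE M21 annotation 23 of the 78 members have exons that overlap with exons of another listed gene, mostly on the opposite strand. Their partners covered a wide range of ratios. Ndufs6, a complex I subunit that overlaps Mrpl36, was at 758.7 FPKM in control and 524.5 FPKM in knockout tissue, a ratio of 0.691 (0.656 to 0.728), while Mrpl36 had 0.918 (0.815 to 1.03). Wdfy1, opposite to Mrpl44, had a ratio of 0.655 (0.562 to 0.763), and Mrpl44 itself 1.001. Nme3, on the same strand as Mrps34, was at 25.2 and 12.8 FPKM with a ratio of 0.507 (0.386 to 0.663). Mrpl46 and Mrps11 overlap with each other on opposite strands, and both were lower, with ratios of 0.794 (0.691 to 0.911) and 0.852 (0.729 to 0.995). Strand is not mentioned in the labels, and reads of such partners may not be told apart where their exons coincide. The median log2 ratio was -0.19 over the 23 members with an overlap and -0.19 over the 55 without.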
